A study of Mus musculus with 6 samples.

Results

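The 43 genes described here run the cell division cycle and the copying of DNA. They were taken by symbol from the deposited expression table, in which 18071 genes have values, from a list of known cell cycle genes and by no threshold on those values. All 43 symbols were found, and 42 of them reached 1 FPKM (fragments mapped to a transcript, scaled by its length and by the mapped fragments of the library) in at least 3 libraries and were tested. Cenpf, a large kinetochore protein, stayed below that limit and is described without a test. The deposited values carry no unit and were taken as FPKM. FPKM is divided by transcript length, so levels of different genes can be set side by side, but only roughly. Differences between libraries still moved with transcript length, as described below.

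The RNA came from immature dendritic cells of the mouse, which sample antigen in tissues and, once mature, present it to T cells. Bone marrow of male C57BL/6 mice, 7 weeks old, had been grown in GM-CSF at 20 ng/ml plus IL-4 at 10 ng/ml for 7 days, and suspension cells were then enriched by CD11c, an integrin subunit of dendritic cells. The 3 FSS libraries are from cells placed under fluid shear stress, 10 dyn/cm2 for 3 h in a cone-plate device, and the 3 static libraries from cells without flow. Both groups carry the replicate numbers 1, 2 and 3, and the labels do not say whether equal numbers share mice, a culture or a day, or whether the libraries of 1 group came from separate cultures, so p-values measure only the spread between these libraries. Cultures of this kind are mixtures by origin, and the CD11c step is the only purification that the labels give.

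Division is driven by cyclins, proteins that accumulate and are destroyed in turn, and by the kinases they activate. D-type cyclins with Cdk4 or Cdk6 start the process in G1 by inactivating the retinoblastoma protein, which frees E2F factors to switch on the genes of DNA synthesis, and cyclin B with Cdk1 later drives mitosis. In marrow cultured with GM-CSF, dividing precursors give rise to dendritic cells that divide little. In bulk RNA, fewer cells of a type and less RNA per cell cannot be told apart.

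Many promoters of the members, but not all, hold at least 1 of 3 short sequence elements. Promoters of 5 genes are shown. The first 3 genes fell under FSS in the fit by pairs below, Cdk6 had the largest fall, and Mcm6 carries several E2F sites. The sequences are the 150 bases before the start site, read 5′ to 3′ on the gene's strand, from RefSeq on GRCm38.p6, with the E2F sites, cell cycle homology regions and CCAAT boxes in capitals.
Ccnb1 (chr13:100786487-100786636, minus strand): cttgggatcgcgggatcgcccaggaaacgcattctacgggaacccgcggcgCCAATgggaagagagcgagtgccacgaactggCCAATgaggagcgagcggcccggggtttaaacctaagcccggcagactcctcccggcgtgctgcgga
Cdk1 (chr10:69352913-69353062, minus strand): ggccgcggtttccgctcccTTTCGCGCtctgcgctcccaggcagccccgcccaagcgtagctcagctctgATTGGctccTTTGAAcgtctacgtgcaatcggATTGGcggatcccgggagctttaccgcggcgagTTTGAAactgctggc
Plk1 (chr7:122159285-122159434, plus strand): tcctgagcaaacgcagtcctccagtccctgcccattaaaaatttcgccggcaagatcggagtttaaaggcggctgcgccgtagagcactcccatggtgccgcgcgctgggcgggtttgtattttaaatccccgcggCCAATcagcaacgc
Mcm6 (chr1:128359706-128359855, minus strand): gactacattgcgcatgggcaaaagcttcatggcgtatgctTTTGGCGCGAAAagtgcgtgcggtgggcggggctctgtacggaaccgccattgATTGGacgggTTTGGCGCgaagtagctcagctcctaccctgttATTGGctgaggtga
Cdk6 (chr5:3343743-3343892, plus strand): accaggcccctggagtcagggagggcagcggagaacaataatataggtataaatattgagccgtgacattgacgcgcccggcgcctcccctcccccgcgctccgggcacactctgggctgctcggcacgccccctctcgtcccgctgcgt
An E2F site was searched as TTTCCCGC, TTTGGCGC, TTTCGCGC or TTTGCCGC, a cell cycle homology region as TTTGAA or TTCGAA, and a CCAAT box as CCAAT, each on both strands. Over windows of 250 bases before to 50 bases after the start, 33 of the 43 members had 36 promoters in the RefSeq table. An E2F site lay in 25% of these against 2.3% of all 32851 promoters of the table. The homology region lay in 38.9% against 19.2%, and the CCAAT box in 75% against 37.4%. In 7 promoters of members that fell in the fit by pairs, the shares were 14.3%, 28.6% and 85.7%, in the same order. In 6 promoters of members that rose they were 33.3%, 50% and 83.3%. The difference between these shares was not tested. Among the printed stretches, Mcm6 holds 3 E2F matches, of which a pair overlaps, and Cdk1 holds 1. Ccnb1 and Plk1 hold CCAAT boxes only, and Cdk6 holds none of the 3 elements. A match is a string of letters and not a measured site. For 26 of the 36 promoters, bases just after the start were found in an annotated transcript of the gene. This held for the printed promoters of Ccnb1, Cdk1, Plk1 and Cdk6 and not for that of Mcm6.

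Levels set the members apart before any comparison. Ccnd2, a D-type cyclin, and Pcna, the clamp that holds polymerases on DNA, had mean levels in static cells of 144 and 102 FPKM. Cdk4, Cdk6, Ccnd3 and Mki67 followed at 38.0, 30.8, 30.0 and 21.7 FPKM. The mitotic genes were far lower, with static means of 4.87 FPKM for Ccnb1, 3.65 FPKM for Cdk1 and 3.06 FPKM for Plk1. The 6 libraries summed to between 413898 and 470596 FPKM, and 10390 to 10959 genes reached 1 FPKM in each. Of 7 dendritic markers, Cd74, H2-Ab1 and Itgax were high throughout. The 7 together summed to 5625 to 7042 FPKM, most of it from Cd74, at 4178 to 5319 FPKM. Zbtb46 ran from 35.95 to 99.4 FPKM, and Flt3 and Cd209a stayed below 1 FPKM in every library.

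**Figure D1:**
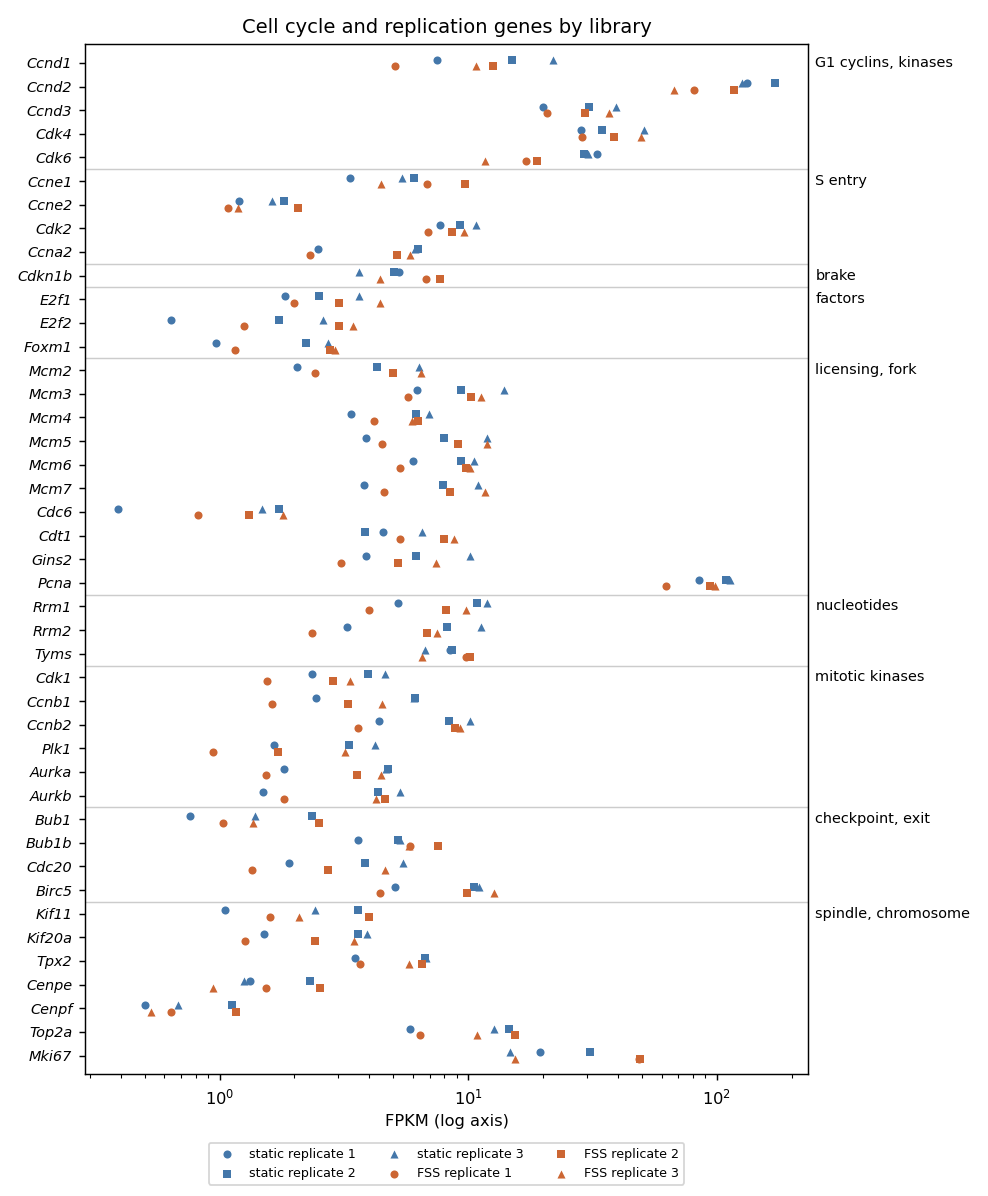
Level of each of the 43 genes in the 3 static (blue) and 3 FSS (orange) libraries, in FPKM on a log axis, with the replicate number as the symbol and the genes grouped by role. For most genes the circles of number 1 lie left of the squares and triangles of the same colour, and Mki67 is an exception, with its triangles of number 3 lowest.

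The first comparison asks which of these genes differ between sheared and static cells. With the replicate numbers left out of the model, 0 of the 42 tested members passed the limma test at an adjusted p under 0.05, against 187 of 10899 genes (1.72%). At an unadjusted p under 0.05, 2 members were lower under FSS, Ccnd2 and Cdk6, and 0 were higher. These are also the 2 members whose 3 FSS libraries all lay below the 3 static ones, where 20.4% of genes tested did so. Bub1b was the 1 member whose FSS libraries all lay above the static ones, against 5.1% of genes. The spread between replicate numbers was wide for nearly every member, as the values below show.

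Libraries of equal number deviated together, so the difference was also fitted within the 3 pairs, with the number as a block. In that fit 14 members passed: 9 fell (Ccnd1, Ccnd2, Cdk6, Pcna, Rrm1, Rrm2, Cdk1, Ccnb1 and Plk1) and 5 rose (Mki67, E2f2, Cdt1, Cdkn1b and Bub1b). Falls were common among all genes tested, at 25.1%, and rises less so, at 7.73%, so the share of members that fell (9 of 42) is near the background. By direction alone, 15 members were lower in all 3 pairs (47.3% of genes tested) and 9 were higher in all 3 pairs (17.1%), which left 18 with mixed signs. The median difference of the members was -0.02 on the log2(FPKM + 1) scale, on which 1 FPKM is added and changes of low genes are understated, and that of all genes was -0.12.

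**Figure D2:**
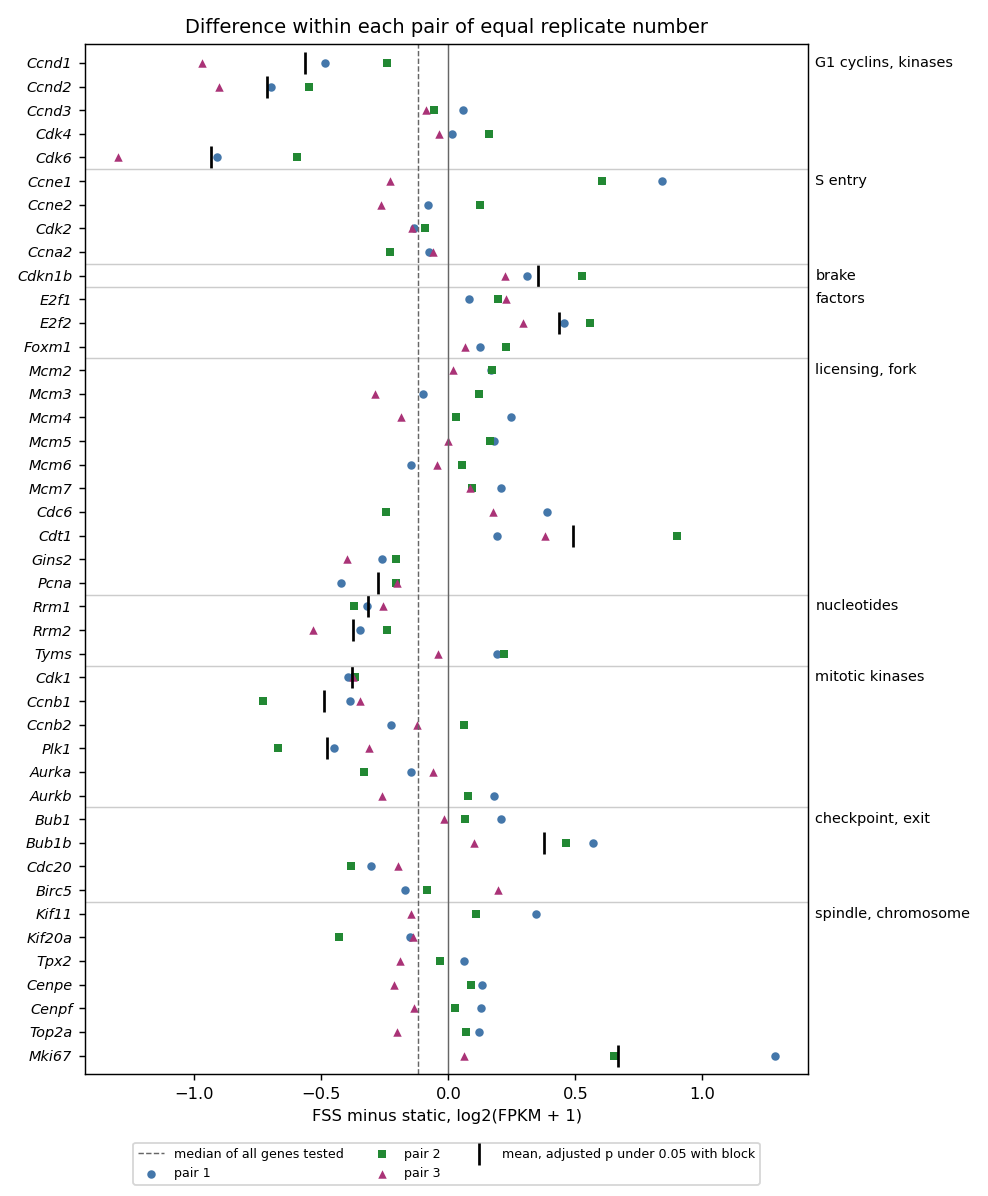
Difference between the FSS and the static library of the same replicate number, in log2(FPKM + 1), for each gene, with 1 symbol per pair; a black bar marks the mean where the adjusted p was under 0.05 in the fit with the replicate block, and the dashed line is the median of all genes tested (-0.12). Cdk6, Ccnd2 and Ccnd1 have all 3 pairs on the left and Mki67, E2f2, Cdt1, Cdkn1b and Bub1b have all 3 on the right.

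The fall of all genes together bears on how these counts read. When each library was rescaled by the median ratio of its genes, the median difference of all genes moved to 0.02 and that of the members to 0.11. With the block and this scaling 5 members fell (Ccnd1, Ccnd2, Cdk6, Ccnb1 and Plk1; background 16.8%) and 11 rose (background 19.2%). The rises then included Ccne1, E2f1, Mcm2, Mcm5, Mcm7 and Tyms, while the falls of Pcna, Rrm1, Rrm2 and Cdk1 no longer passed. The 3 G1 genes and the pair Ccnb1 and Plk1 passed as lower with and without scaling. Mki67, E2f2, Cdt1, Cdkn1b and Bub1b passed as higher both ways. The share of all genes that passed both ways was not counted, so these joint lists have no background to be read against.

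Single pairs carried part of these counts. Without the libraries numbered 1, 5 members fell (Ccnd1, Ccnd2, Cdk6, Ccnb1 and Plk1) and 2 rose (E2f2 and Cdt1), against 15.1% and 4.4% of all genes. Without those numbered 2, 3 fell (Ccnd1, Ccnd2 and Cdk6) and 1 rose (Mki67), against 17.9% and 5.17%. Leaving out number 3 gave 9 falls and 6 rises, against 24.6% and 14.6%. Ccnd1, Ccnd2 and Cdk6 fell in each of these fits, which share libraries. The share of all genes that fell in each of them was not counted. Ccnd2 and Cdk6 were also the 2 members that passed when low genes were kept in the test or the threshold was set to 0.01. With low genes kept, 8.58% of all genes fell and 2.78% rose, and at 0.01 the shares were 11.3% and 3.52%.

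Among the G1 cyclins and kinases, 3 of 5 genes fell with the block (25.1% of all genes tested did): a kinase and a pair of D-type cyclins. Cdk6, the partner kinase of D-type cyclins that is prominent in blood cells, stood at 32.9, 29.2 and 30.3 FPKM in static replicates 1, 2 and 3 and at 17.0, 19.0 and 11.7 FPKM in FSS replicates 1, 2 and 3. The groups do not overlap, and the static libraries lie within a narrow band. Its FSS mean was 0.516 of the static mean, a log2 difference of -0.94 (SE 0.14 with the block, adjusted p = 0.0032; 0.0684 without the block). Ccnd2 measured 132, 172 and 127 FPKM in static cells and 80.8, 117 and 67.5 FPKM under FSS, in the same order. Again no FSS library reached the static range, and the log2 difference was -0.72 (SE 0.09, adjusted p = 0.00224 with the block and 0.172 without).

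Ccnd1, the D-type cyclin that growth factors induce in many tissues, measured 7.50, 15.0 and 22.03 FPKM in static cells and 5.07, 12.5 and 10.8 FPKM under FSS. Each FSS library was below its static partner, but the groups overlap, since number 1 was low in both. The FSS mean was 0.637 of the static mean (log2 difference -0.57, SE 0.14, adjusted p = 0.0209 with the block and 0.545 without). Without the block, leaving out 1 library took the difference to -0.96 (static replicate 1), -0.24 (static replicate 3) or -0.21 (FSS replicate 1), and leaving out both libraries numbered 3 took it to -0.36. With 1 library left out, the groups no longer hold the same replicate numbers. Such unpaired differences, here and below, therefore also take in differences between the numbers.

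The remaining G1 genes showed no such difference. Ccnd3, the third D-type cyclin, measured 19.9, 30.7 and 39.4 FPKM in static cells and 20.8, 29.5 and 37.0 FPKM under FSS. Cdk4, the other kinase of D-type cyclins, measured 28.5, 34.6 and 51.0 FPKM in static cells and 28.8, 38.8 and 49.7 FPKM under FSS. The FSS libraries of both genes track their static partners number by number, and adjusted p with the block was 0.826 for Ccnd3 and 0.724 for Cdk4. Cdk4 and Cdk6, which bind the same cyclins, thus stood at similar static means (38.0 and 30.8 FPKM) and at FSS means of 39.1 and 15.9 FPKM. Whether these differences themselves differ was not tested.

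Of the 4 genes of S phase entry, 0 passed with the block, where 25.1% of all genes tested fell and 7.73% rose. Ccne1 and Ccne2 encode the E-type cyclins, Cdk2 their kinase, and Ccna2 the A-type cyclin of S phase and G2. Ccne1 was the most uneven of them, at 3.36, 6.04 and 5.41 FPKM in static cells and 6.81, 9.70 and 4.47 FPKM under FSS. It was higher under FSS in pairs 1 and 2, by 0.84 and 0.60 on the log2 scale, and lower in pair 3, by -0.23; its adjusted p was 0.138 with the block and 0.0211 with block and scaling. Cdk2 ran from 6.90 to 10.8 FPKM, Ccna2 from 2.30 to 6.26 FPKM and Ccne2 from 1.08 to 2.06 FPKM, with adjusted p from 0.325 to 0.635 with the block.

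Cdkn1b, which encodes p27, an inhibitor of cyclin-dependent kinases, stood at 5.27, 5.04 and 3.65 FPKM in static cells and at 6.78, 7.70 and 4.43 FPKM under FSS. Every FSS library was above its partner, and number 3 was the lowest of both groups. The log2 difference was 0.35 (SE 0.10, adjusted p = 0.0348 with the block and 0.469 without). Unpaired, it was 0.55 without FSS replicate 3, 0.21 without FSS replicate 2 and 0.22 without static replicate 3.

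Among the transcription factors, E2f2, an activating E2F, rose with the block, and E2f1 and Foxm1 did not pass. E2f2 was low, at 0.64, 1.73 and 2.61 FPKM in static cells and 1.25, 3.02 and 3.43 FPKM under FSS. It was higher under FSS in each pair, and the difference was 0.44 (SE 0.10, adjusted p = 0.0162 with the block and 0.588 without). Unpaired, it was 0.12 without static replicate 1, 0.25 without FSS replicate 3, 0.69 without static replicate 3 and 0.74 without FSS replicate 1. E2f1, the founding member of the family, measured 1.83, 2.50 and 3.64 FPKM in static cells and 1.99, 3.01 and 4.43 FPKM under FSS (adjusted p = 0.215 with the block, 0.047 with block and scaling). Foxm1, which drives genes of G2 and mitosis, ran from 0.97 to 2.90 FPKM and was higher under FSS in each pair by 0.06 to 0.23, with an adjusted p of 0.303.

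Of the 10 genes of origin licensing and the replication fork, 1 rose and 1 fell with the block (7.73% and 25.1% of all genes tested). Cdt1, which loads the replicative helicase onto origins, measured 4.55, 3.83 and 6.53 FPKM in static cells and 5.34, 8.02 and 8.81 FPKM under FSS. Pair 2 had the widest gap, 0.90 on the log2 scale, against 0.19 and 0.38 in pairs 1 and 3 (difference 0.49, SE 0.14, adjusted p = 0.0341 with the block and 0.329 without). Pcna measured 84.6, 109 and 113 FPKM in static cells and 62.8, 94.1 and 98.3 FPKM under FSS. Its difference of -0.28 passed with the block (SE 0.09, adjusted p = 0.0454) and not with block and scaling (0.405), and unpaired it was -0.075 without FSS replicate 1.

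The 6 subunits of the helicase itself, Mcm2 to Mcm7, did not pass with the block, at adjusted p from 0.321 to 0.858. Mcm2 measured 2.05, 4.30 and 6.36 FPKM in static cells and 2.43, 4.97 and 6.46 FPKM under FSS. Mcm3 reached 14.0 FPKM and Mcm5 and Mcm7 reached 11.9 and 11.7 FPKM in their highest libraries, each of which was numbered 3. Gins2, a subunit of the helicase's GINS cofactor, measured 3.88, 6.18 and 10.1 FPKM in static cells and 3.07, 5.23 and 7.43 FPKM under FSS. It was lower in each pair, with an adjusted p of 0.0548 just outside the threshold. Cdc6, which recruits the helicase together with Cdt1, ran from 0.39 to 1.80 FPKM with mixed signs.

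Nucleotide supply gave 2 falls among 3 genes with the block (25.1% of all genes tested fell). Both were in ribonucleotide reductase, the enzyme that turns ribonucleotides into the building blocks of DNA. Rrm1, its large subunit, measured 5.22, 10.9 and 11.9 FPKM in static cells and 3.98, 8.16 and 9.79 FPKM under FSS. Rrm2, its small subunit, measured 3.26, 8.23 and 11.3 FPKM in static cells and 2.35, 6.81 and 7.49 FPKM under FSS. Both were lower in each pair (log2 differences -0.32 and -0.37, SE 0.09 and 0.10, adjusted p = 0.0361 and 0.0276), and neither passed with block and scaling (0.183 and 0.0579). In pairs 1, 2 and 3 the differences were -0.32, -0.37 and -0.26 for Rrm1 and -0.35, -0.24 and -0.53 for Rrm2. Unpaired, and so with unequal numbers in the groups, leaving out static replicate 1 gave -0.65 and -0.82 for Rrm1 and Rrm2. Leaving out FSS replicate 1 gave 0.02 and 0.05. Other single libraries left out moved them less, to -0.12 and -0.05 without static replicate 3, to -0.54 and -0.62 without FSS replicate 3, and, for Rrm1, to -0.18 without static replicate 2. Tyms, thymidylate synthase, measured 8.48, 8.63 and 6.72 FPKM in static cells and 9.81, 10.2 and 6.50 FPKM under FSS, with number 3 lowest in both groups and an adjusted p of 0.377.

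Of the 6 mitotic cyclins and kinases, 3 fell with the block and 0 rose (25.1% and 7.73% of all genes tested). Ccnb1, the B-type cyclin that activates Cdk1, measured 2.44, 6.13 and 6.03 FPKM in static cells and 1.63, 3.30 and 4.52 FPKM under FSS. Cdk1, the kinase of mitosis, measured 2.35, 3.97 and 4.64 FPKM in static cells and 1.55, 2.85 and 3.35 FPKM under FSS. Plk1, a kinase of centrosomes and mitotic entry, measured 1.65, 3.32 and 4.21 FPKM in static cells and 0.94, 1.71 and 3.19 FPKM under FSS. In all 3 genes each FSS library lay below its partner while the groups overlapped through the low values of number 1. Cdk1 was the most even of them, with log2 differences of -0.39, -0.37 and -0.37 in pairs 1, 2 and 3 (adjusted p = 0.0194 with the block and 0.527 without). The FSS mean of Ccnb1 was 0.647 of the static mean (adjusted p = 0.0148) and that of Plk1 was 0.636 (adjusted p = 0.0142). Unpaired, the differences of Ccnb1, Cdk1 and Plk1 were -0.84, -0.60 and -0.76 without static replicate 1 and -0.19, -0.15 and -0.21 without FSS replicate 1. Without static replicate 3 they were -0.32, -0.22 and -0.27; Ccnb1 was -0.31 without static replicate 2 and Plk1 was -0.77 without FSS replicate 3.

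Genes that work beside them did not pass. Ccnb2, a second B-type cyclin, ran from 3.59 to 10.2 FPKM, and Aurka and Aurkb, the Aurora kinases of the spindle poles and the centromere, ran from 1.49 to 5.32 FPKM. Their adjusted p was 0.492, 0.21 and 0.992 with the block.

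Of the 4 checkpoint and exit genes, 1 rose and 0 fell with the block (7.73% and 25.1% of all genes tested). Bub1b, which encodes BubR1 of the spindle checkpoint, measured 3.61, 5.21 and 5.31 FPKM in static cells and 5.84, 7.55 and 5.76 FPKM under FSS. It rose with the block by 0.38 (SE 0.12, adjusted p = 0.044; 0.353 without), and the gap narrowed to 0.10 in pair 3; unpaired, the difference was 0.23 without static replicate 1. Cdc20, which activates the ubiquitin ligase that ends mitosis and is held back by BubR1, measured 1.90, 3.85 and 5.45 FPKM in static cells and 1.35, 2.72 and 4.62 FPKM under FSS. It was lower in each pair and missed the threshold at an adjusted p of 0.0524. Bub1 and Birc5, which encodes survivin, had adjusted p of 0.543 and 0.896.

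Of the 6 tested genes of the spindle, kinetochore and chromosome, 1 rose with the block (7.73% of all genes tested did). This was Mki67, which encodes the Ki-67 protein that coats mitotic chromosomes and is stained to count dividing cells. It measured 19.4, 31.0 and 14.7 FPKM in static cells and 48.8, 49.3 and 15.4 FPKM under FSS. The FSS libraries numbered 1 and 2 lay above every other library, while in pair 3 both values were low and close. Pair differences were 1.29, 0.65 and 0.06 on the log2 scale, with a mean of 0.67 (SE 0.20, adjusted p = 0.0394 with the block and 0.516 without). Unpaired, the difference was 1.20 without FSS replicate 3, 0.40 without either of the other FSS replicates and 0.43 without static replicate 3. Top2a, topoisomerase II alpha, which untangles chromosomes in dividing cells, measured 5.81, 14.6 and 12.7 FPKM in static cells and 6.41, 15.4 and 10.9 FPKM under FSS, an FSS mean of 0.987 of the static mean (adjusted p = 0.977 with the block). The motor proteins Kif11, Kif20a and Cenpe and the spindle factor Tpx2 had adjusted p from 0.117 to 0.992 with the block. Cenpf ran from 0.50 to 1.16 FPKM, with pair differences of 0.13, 0.03 and -0.13.

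The values of single genes differed within a pair. From the static to the FSS library numbered 1, Mki67 went from 19.4 to 48.8 FPKM while Cdk1 went from 2.35 to 1.55 FPKM and Ccnb1 from 2.44 to 1.63 FPKM; Aurkb went from 1.49 to 1.82 FPKM. The difference between these genes was not tested. A test for a different FSS effect in number 3 than in numbers 1 and 2 called 0 of 42 members in limma, against 1 of 10899 genes (0.00918%). At an unadjusted p under 0.05 it took in 1 member, Cdk6, against 572 of all genes (5.25%); the unadjusted p of Mki67 in limma was 0.0543.

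The second comparison is between the replicate numbers. A test for any difference among the 3 numbers with the group in the model, which was added after the values had been seen, called 37 of 42 members, against 49.7% of all genes tested. Cdk6, Ccne1, Ccne2, Cdt1 and Bub1b were the members that did not pass. Number 1 was the lowest of its group in both groups in 33 of the 42 members, and in 28.3% of genes tested; this count was chosen after seeing the values and carries no test. The mean of numbers 2 and 3 was 2.11 times that of number 1 for the median member and 1.015 times for the median gene.

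Rrm2 had the widest such gap, 2.81 FPKM in number 1 and 7.52 and 9.40 FPKM in numbers 2 and 3 (means of the static and FSS library), a ratio of 3.02. E2f2 and Aurkb followed at ratios of 2.85 and 2.80. The 6 mitotic cyclins and kinases summed to 14.1, 30.9 and 35.1 FPKM in static replicates 1, 2 and 3 and to 11.1, 24.9 and 29.1 FPKM under FSS. The licensing genes without Pcna summed to 34.2, 56.9 and 78.9 FPKM in static cells and to 36.0, 63.5 and 75.6 FPKM under FSS. In both sums number 1 is below the others in either group, by more than static and FSS differ within any number.

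Markers of other cells moved with the numbers. The 10 genes of neutrophils and their precursors, each of which reached 1 FPKM in some library, summed to 291, 483 and 524 FPKM in static replicates 1, 2 and 3 and to 258, 402 and 437 FPKM under FSS. Ngp, a granule protein of maturing neutrophils, measured 24.5, 48.9 and 71.1 FPKM in static cells and 32.9, 51.4 and 71.7 FPKM under FSS, and Mpo, myeloperoxidase, was lowest in number 1 as well, at 1.68 and 1.51 FPKM. The sum of 6 macrophage markers was highest in number 1 (129, 98.8 and 95.7 FPKM in static cells, 178, 131 and 113 FPKM under FSS), as was Adgre1 in both groups, whereas Fcgr1 and C1qc were highest in number 3. The 6 progenitor markers summed to 4.65 to 11.5 FPKM, and the sum was lowest in number 3, as were Kit, Myb, Meis1 and Sox4, whereas Cd34 and Gata2 were lowest in number 1. Within each number the neutrophil sum was lower under FSS, through S100a8 (154, 243 and 240 FPKM in static cells, 98.9, 156 and 146 FPKM under FSS), while S100a9 and Ngp were higher in each pair. The macrophage sum was higher in each pair, through Mertk and Adgre1, while Fcgr1 was lower in each pair. Markers of mast cells and basophils, B cells, T and NK cells, and red cells reached at most 5.03 FPKM per list in any library. The part of these cells in the members' differences between numbers and under FSS was not tested.

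**Figure D3:**
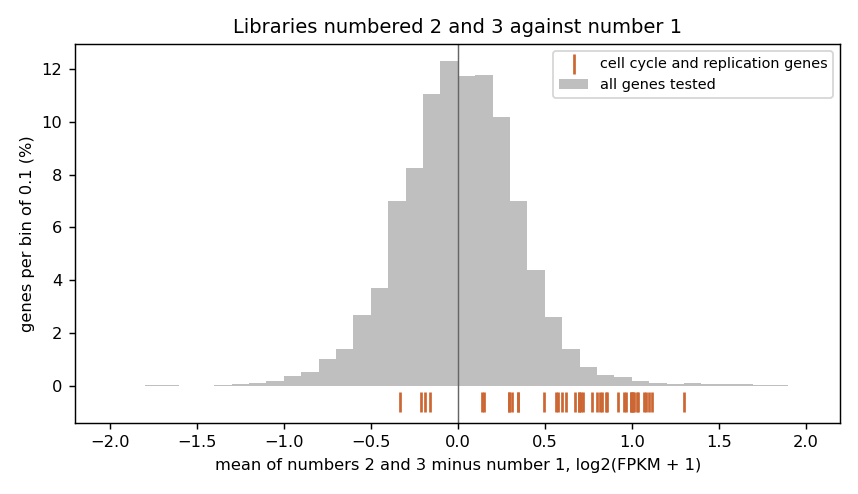
Mean of the libraries numbered 2 and 3 minus that of number 1, in log2(FPKM + 1), as a histogram over all 10899 genes tested (grey, percent of genes per bin) with the 42 tested cell cycle and replication genes as orange ticks. Most ticks lie right of 0, up to 1.30 for Rrm2, and 4 lie left of it, the lowest being Mki67 at -0.33.

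Number 3 was then set against numbers 1 and 2 with the group in the model. Here 11 members were higher in number 3 (Ccnd3, Cdk4, E2f1, Mcm2, Mcm3, Mcm5, Mcm7, Cdt1, Gins2, Plk1 and Cdc20; background 13.7%) and 3 were lower (Cdkn1b, Tyms and Mki67; background 29.3%). The median of the members was 0.53 on the log2 scale and that of all genes was -0.12. Against number 1 alone the median of the members was 0.82, and against number 2 alone it was 0.14, where all genes had -0.07 and -0.17. With the scaling, 15 were higher (background 24%) and 3 lower (background 25.1%). This count rested on few libraries: without FSS replicate 3, 0 members and 0 genes of any kind passed, and without static replicate 3, 0 were higher and 4 lower (3.98% and 22.4% of all genes). Leaving out static replicate 2 gave 25 higher and 3 lower (13.9% and 27.4% of all genes), and leaving out FSS replicate 2 gave 19 and 3 (14.6% and 23.7%). Without static replicate 1 the counts were 9 and 5 (11% and 30.6%), and without FSS replicate 1 they were 5 and 3 (9.72% and 23.9%).

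By role, the members higher in number 3 were 2 of 5 G1 genes, 6 of 10 licensing and fork genes, 1 of 3 transcription factors, 1 of 6 mitotic cyclins and kinases and 1 of 4 checkpoint and exit genes. Of all genes tested, 13.7% were higher in number 3. Cdk4 averaged 28.7, 36.7 and 50.3 FPKM in numbers 1, 2 and 3 (number 3 minus the others 0.62, SE 0.15, adjusted p = 0.0123). Gins2 averaged 3.48, 5.71 and 8.78 FPKM (0.83, SE 0.21, adjusted p = 0.0143). E2f1 averaged 1.91, 2.76 and 4.04 FPKM (0.60, adjusted p = 0.017) and Cdc20 averaged 1.63, 3.29 and 5.04 FPKM (0.85, adjusted p = 0.021). Plk1 averaged 1.30, 2.52 and 3.70 FPKM (0.75, adjusted p = 0.0244). In all 5 genes the library numbered 1 was the lowest and that numbered 3 the highest of each group.

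Lower in number 3 were Mki67, Cdkn1b and Tyms. Mki67 averaged 34.1, 40.1 and 15.1 FPKM in numbers 1, 2 and 3, a difference of -1.16 (SE 0.23, adjusted p = 0.00614). Cdkn1b averaged 6.03, 6.37 and 4.04 FPKM (-0.50, adjusted p = 0.0125) and Tyms 9.15, 9.42 and 6.61 FPKM (-0.43, adjusted p = 0.0201). Outside this count, and picked after their values were seen, Kif11 (3.8 and 2.26 FPKM), Bub1 (2.44 and 1.38 FPKM) and Cenpe (2.43 and 1.10 FPKM) had lower means in number 3 than in number 2, whereas Kif20a had 3.01 and 3.71 FPKM.

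Transcript length moved with the difference between numbers 2 and 3. In both groups, 22 of the 42 members were higher in number 3 than in number 2, with a median longest transcript of 2997 bases, and 10 were lower, with a median of 4686 bases. Of the 10683 genes tested that have a length, 2981 were higher in both groups and 5711 were lower, with medians of 2053 and 3775 bases. Over the 42 members the difference and the log2 length had a Pearson correlation of -0.57 (Spearman -0.45), and over 10683 genes with a length it was -0.42 (Spearman -0.43). These are correlations across genes of the same libraries, and genes are not replicates. Mki67 has a longest transcript of 10061 bases and the widest difference of the members, -1.32, whereas Cdk6, at 11525 bases, differed by -0.30. Of all libraries FSS replicate 3 had the lowest sum of value times transcript length (1.04 times 1e9 with the longest transcripts, against 1.16 to 1.18 in the others). The part of length in the values of Mki67, Cenpe and Kif11 was not tested.

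**Figure D4:**
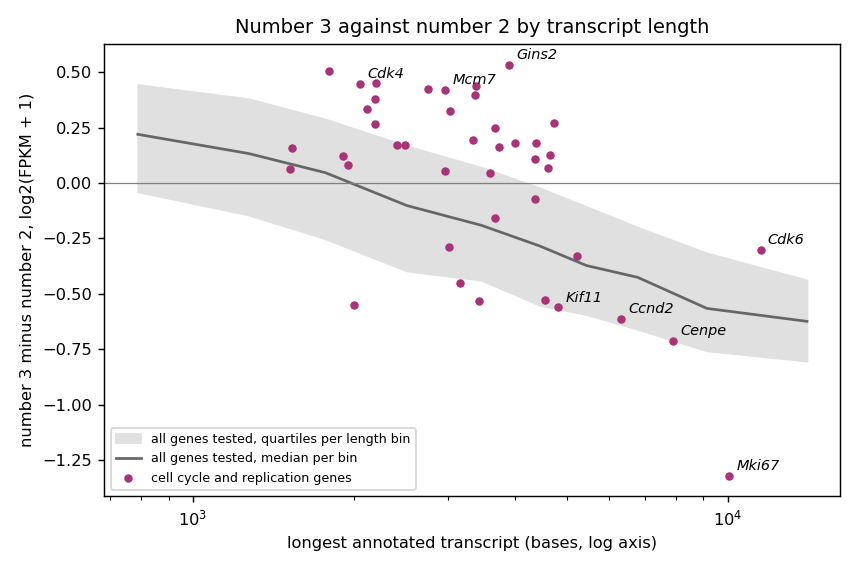
Difference between the libraries numbered 3 and 2 (mean of static and FSS), in log2(FPKM + 1), against the longest annotated transcript in bases on a log axis; purple points are the members with a test and the grey line and band are the median and quartiles of all genes tested per length bin. The band slopes downward with length, and Mki67 at -1.32 lies below it while Cdk6 at -0.30 lies above it.

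The wider pathway was read from 3 further lists of genes that are not members. Of 41 tested genes of the replisome and S phase, 1 passed as lower without the block, Tipin, a protein that stabilises stalled forks. Tipin measured 3.49, 3.53 and 5.14 FPKM in static cells and 1.31, 1.44 and 1.52 FPKM under FSS, with no overlap (log2 difference -1.05, adjusted p = 0.0383; 0.00125 with the block). Fitted by pairs, 5 genes of the list fell (12.2%, against 25.1% of all genes) and 1 rose (2.44%, against 7.73%). With scaling added 5 fell (12.2%, against 16.8% of all genes) and 9 rose (22%, against 19.2%). The falls included Fen1, the flap nuclease that trims lagging-strand fragments (8.39, 10.95 and 15.3 FPKM in static cells, 5.19, 8.34 and 9.59 FPKM under FSS), and Slbp, which binds histone messenger RNA. The rise was Rpa1, the large subunit of the single-strand binding protein, with an FSS mean of 1.27 times the static mean. Number 3 was higher in 11 of these genes (26.8%, against 13.7% of all genes) and lower in 4 (9.76%, against 29.3%).

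Among 41 tested mitosis genes 0 passed without the block in limma, with 1 at an unadjusted p under 0.05. With the block 4 fell (9.76%, against 25.1% of all genes) and 2 rose (4.88%, against 7.73%). With block and scaling 2 fell (4.88%, against 16.8% of all genes) and 11 rose (26.8%, against 19.2%). Pttg1, securin, which restrains the separation of sister chromatids, measured 24.1, 19.5 and 26.0 FPKM in static cells and 13.5, 12.5 and 15.8 FPKM under FSS, with no overlap (adjusted p = 0.00249 with the block). Ube2s, a ubiquitin-conjugating enzyme of mitotic exit, and Kif23, a motor of cytokinesis, also fell, with FSS means of 0.749 and 0.648 of the static means; with block and scaling Ube2s did not pass (adjusted p = 0.0632). Cdc25b, a phosphatase that activates Cdk1, and Cks2, a small Cdk-binding protein, rose with the block to 1.55 and 1.504 times the static means. Unlike Cdk1 itself, Cks2 had all 3 FSS libraries above the static ones (3.73, 7.37 and 8.0 against 8.74, 10.3 and 9.65 FPKM).

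Brakes, pocket proteins and other regulators were tested in 30 genes. Without the block 1 passed, Cdkn2b, which encodes p15, an inhibitor of Cdk4 and Cdk6. Cdkn2b measured 27.2, 18.6 and 28.2 FPKM in static cells and 9.72, 8.51 and 10.95 FPKM under FSS (log2 difference -1.24, adjusted p = 0.038; 0.000644 with the block). Without the block but with scaling, 0 of the list passed in limma. Fitted by pairs, 8 genes of the list fell (26.7%, against 25.1% of all genes) and 5 rose (16.7%, against 7.73%). With scaling added 5 fell (16.7%, against 16.8% of all genes) and 7 rose (23.3%, against 19.2%). Cdkn1a, which encodes p21, measured 397, 352 and 557 FPKM in static cells and 188, 258 and 339.7 FPKM under FSS, a level above that of every cyclin and kinase among the members (adjusted p = 0.00357 with the block). E2f3, an activating E2F, went from 5.01, 6.22 and 4.44 FPKM to 1.75, 3.45 and 1.91 FPKM. The inhibitors p15 and p21 were thus lower under FSS with no overlap of the groups, while p27 (Cdkn1b) was higher in each pair with overlap.

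The rises of that list with the block included Ccng2, a cyclin-like protein of cells leaving the cycle (10.1, 8.06 and 7.08 FPKM in static cells, 19.6, 19.2 and 9.19 FPKM under FSS), E2f5, a repressive E2F, and Rb1, the retinoblastoma protein. The FSS means were 1.90, 1.44 and 1.28 times the static means. Both Rb1 and E2f5 were lowest in number 3 in either group.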

How the data were processed

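RNA of 6 libraries, 3 static and 3 FSS, was grouped by the sample titles. Per the submitters' processing notes HISAT and Bowtie2 were used, without roles; quantifier and build: not given in the sources used here. The authors deposited 1 value per gene and library without a unit. These deposited values were taken as FPKM from their sums with transcript length, and depth is unknown, so no counting interval is given. The 10899 genes that reached 1 FPKM in 3 or more libraries were fitted on log2(FPKM + 1) with limma 3.58.1 in R 4.3.3 (trend, moderated variances, two-sided, Benjamini-Hochberg over all genes tested, threshold 0.05), after a test on simulated data. Ratios are of mean FPKM. Deviations from the group means correlated between libraries of equal number (0.79, 0.66 and 0.87 for numbers 1, 2 and 3; -0.78 to 0.28 between unequal numbers), so the numbers were taken to pair the libraries; this comes from the data and not from the labels. Other settings tried were 0.1 as pseudocount, all genes unfiltered, 0.01 as threshold, median-ratio scaling, the replicate block and left-out libraries. The members and lists were chosen with earlier results of these data known. Every value was given for the 12 members with the smallest adjusted p with the block, the 8 with the smallest for number 3, and 13 listed genes; others are given by range or were taken up after their values were seen. Of the wider lists, up to 3 genes per direction are named. Transcript lengths are from GENCODE and promoters from RefSeq.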

Additional observations from a re-analysis of the deposited data

How the results depend on the processing

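The replicate block changed the number of calls. It could not change a difference, because each number has 1 static and 1 FSS library. Scaling and left-out libraries changed directions. Against 0 members called without it, the replicate block called 14, and the replicate block with scaling 16; without both libraries numbered 3 the count was 1, and it ran from 0 to 1 with 1 library left out. Over all genes the 187 calls became 21 with no filter, 5 at a threshold of 0.01, 3581 with the replicate block, 3923 with block and scaling, 775 without both libraries numbered 3, and 3 to 467 with 1 library left out. The member median of -0.02 became 0.112 with scaling, with and without the block, and ran from -0.277 to 0.195 with 1 library left out. In the fit with the block, the 9 falls became 2 with no filter, 2 at the threshold of 0.01, 5 with scaling, 5 without number 1 and 3 without number 2, and the 5 rises became 0, 0, 11, 2 and 1; all genes called went from 3581 to 1954 with no filter, 1617 at 0.01 and 2122 without number 1. The 14 members called for number 3 became 4 with no filter, 1 at 0.01 and 0 to 28 with 1 library left out, the 4684 genes became 2183 at 0.01 and 0 to 4531 with 1 library left out, and the median of 0.53 became 0.653 with the pseudocount of 0.1, 0.637 with scaling and 0.348 to 0.69 with 1 library left out. The log2 difference of FSS changed sign in 9 named members. Without the block 0 members were called at all, and with it Rrm1 and Rrm2, which changed sign, were among the falls. Top2a became 0.143 with scaling, with and without the block, and 0.0951 without both libraries numbered 3, and Ccnd3 became 0.128 with scaling, with and without the block, and 9.05e-05. With 1 library left out, the differences ran from -0.372 to 0.300 in Top2a, -0.286 to 0.187 in Ccnd3, -0.815 to 0.053 in Rrm2, -0.646 to 0.0162 in Rrm1, -0.1399 to 0.273 in Cdk4, -0.580 to 0.0145 in Gins2, -0.0489 to 0.382 in E2f1, -0.611 to 0.0252 in Cdc20 and -0.224 to 0.440 in Mcm2. These fits with 1 library left out were unpaired, so the groups held unequal replicate numbers and differences between numbers enter the values. Within the 3 pairs, Rrm1, Rrm2, Cdc20 and Gins2 were lower under FSS each time, and E2f1 and Mcm2 were higher each time. Top2a, Ccnd3 and Cdk4 had mixed signs. How much of each change came from the unequal numbers was not tested. The unit and the depth of the deposited values are inferred or unknown, so nothing here shows how much of the spread in genes near 1 FPKM is counting error.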
